A study of Mus musculus with 24 samples.

Results

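Vaultrc5, Rn7sk, Rpph1 and Rmrp are 4 short structured RNAs transcribed by RNA polymerase III, and they were followed through all 24 mouse liver libraries of the study. They were taken by name from a table of 35974 gene symbols, and all 4 passed the filter on low values that left 4875 genes. The set was chosen by earlier results on these same values, in which Vaultrc5 differed between classes and between genotypes, together with 3 further RNAs of the same polymerase. The members' differences between groups are therefore given below with their errors, as descriptions without tests. The libraries came from livers of C3H/HeJ mice labelled wild type (WT) or transgenic (TGA), with 4 libraries in each of 6 groups formed by genotype and by a title suffix of 2, 4 or 8. The suffix is called class 2, class 4 and class 8 here. The labels do not define it, and a reading as hepatocyte DNA content rests on the series title alone. The labels name neither the transgene nor its promoter, and the age and sex of the mice were not known here. Nothing says that the libraries of one group came from separate animals, so errors and p-values rest on spread between libraries, which may be technical. Fitted SEs draw largely on a spread pooled over all genes tested, so they do not measure the spread of a member alone.

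RNA polymerase III makes small non-coding RNAs such as transfer RNAs, 5S ribosomal RNA and the 4 members. The 7SK, RNase P and RNase MRP genes are known for promoters that lie entirely upstream of the transcript and are read by the SNAPc complex, whereas vault RNA genes carry internal promoter boxes bound by TFIIIC. Vault RNA sits in the vault, a large cytoplasmic ribonucleoprotein barrel built from the major vault protein. 7SK RNA holds the transcription elongation kinase P-TEFb in an inactive complex with Hexim proteins. Rpph1 is the catalytic RNA of RNase P, which trims the 5′ leaders of precursor transfer RNAs, and Rmrp is the RNA of RNase MRP, a nucleolar relative of RNase P that cuts precursor ribosomal RNA.

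The RNAs read in this assay are short, and their sequences show which reads could be told apart. The transcripts below are from GENCODE M21 on build GRCm38, all on the minus strand, and each is the exon of a non-coding gene: Rn7sk at chr9:78175303-78175633, Rpph1 at chr14:50807449-50807767 and Rmrp at chr4:43492788-43493058. Of Rn7sk and Rpph1 the first 300 bases from the 5′ end are printed, and Rmrp is printed whole. Capitals mark the GATC copies in Rn7sk, the motif (GAUC in RNA, its own reverse complement) known from the Hexim-binding hairpin of 7SK, and in the other 2 RNAs the longest run of bases that Rpph1 and Rmrp share.
Rn7sk: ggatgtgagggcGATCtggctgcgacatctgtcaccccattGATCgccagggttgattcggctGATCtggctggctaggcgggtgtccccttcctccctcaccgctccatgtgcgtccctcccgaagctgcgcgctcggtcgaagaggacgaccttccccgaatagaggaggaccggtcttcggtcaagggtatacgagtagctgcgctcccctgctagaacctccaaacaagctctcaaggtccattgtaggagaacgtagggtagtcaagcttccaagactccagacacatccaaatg
Rpph1: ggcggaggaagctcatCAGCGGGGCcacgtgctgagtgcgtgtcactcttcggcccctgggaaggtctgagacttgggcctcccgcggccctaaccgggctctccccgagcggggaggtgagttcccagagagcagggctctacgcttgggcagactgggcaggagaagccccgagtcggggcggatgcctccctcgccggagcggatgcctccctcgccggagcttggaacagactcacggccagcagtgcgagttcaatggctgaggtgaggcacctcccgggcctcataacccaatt
Rmrp: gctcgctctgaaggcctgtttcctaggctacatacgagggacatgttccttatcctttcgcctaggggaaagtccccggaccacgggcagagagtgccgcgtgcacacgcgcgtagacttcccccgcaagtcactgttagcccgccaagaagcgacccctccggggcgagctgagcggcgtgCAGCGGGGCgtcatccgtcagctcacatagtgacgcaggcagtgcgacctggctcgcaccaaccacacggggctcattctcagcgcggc
Rn7sk is 331 bases long and holds 3 copies of GATC, starting at bases 13, 42 and 64. Of 129282 annotated transcripts of at least that length, 7.99% hold as many in their first 331 bases, and 61.89% hold at least 1. Rpph1 (319 bases) and Rmrp (271 bases) share no run longer than 9 bases, so a read of 75 bases, the length sequenced here, separates them. Vaultrc5 is the shortest member, at 143 bases, and its sequence is not shown. It shared no run of 30 bases with any other annotated transcript. Rn7sk shared such a run with 30 other annotated genes, 4 of them over at least 75 bases, with a longest run of 241 bases, and 0 of the 30 are in the deposited table. Reads of Rn7sk may therefore have been split with or gained from these copies, depending on a counting step that the sources used here do not give. Rpph1 shared a run of 233 bases with a transcript of its neighbour Ccnb1ip1, and Rmrp one of 124 bases with its neighbour Ccdc107.

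Of the 8 neighbouring genes, 4 were listed at 0 throughout and 1 passed the filter on low values. Ccnb1ip1 was above 0 in 2 of 24 libraries and Ccdc107 in 4, with highest log2 values of 1.77 and 3.08. Parp2, which lies on the other side of Rpph1, was listed at 0 in every library (0 above 0), as were Zmat2 beside Vaultrc5, Sit1 beside Rmrp and C920006O11Rik beside Rn7sk. Gm6756, on the other side of Vaultrc5, was above 0 in 2 libraries, and the kinase gene Ick, on the other side of Rn7sk, in 6, with a highest log2 value of 6.28. Ick differed between classes 4 and 2 by 0.35 (SE 0.89), against -4.31 (SE 1.12) for Rn7sk.

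Each value is log2(normalised count + 1), and the values look as if a normalisation had set them by the rank of a gene within its library, which no label states. The number of genes above 0 ran from 1624 to 15147 per library, read totals are not recoverable from such values, and the depth is unknown. Hepatocyte markers (8 genes) were present, with summed log2 values per library between 17.5 and 81.6, against 0 to 8.73 for 6 macrophage and Kupffer cell markers, 0 to 12.4 for 6 endothelial, 0 to 11.6 for 6 stellate cell and fibroblast, 0 to 6.84 for 5 cholangiocyte and 0 to 6.63 for 5 lymphocyte markers. All 4 erythroid markers were at 0 in every library. In such bulk samples, fewer cells of a type and less RNA per cell cannot be told apart.

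**Figure D1:**
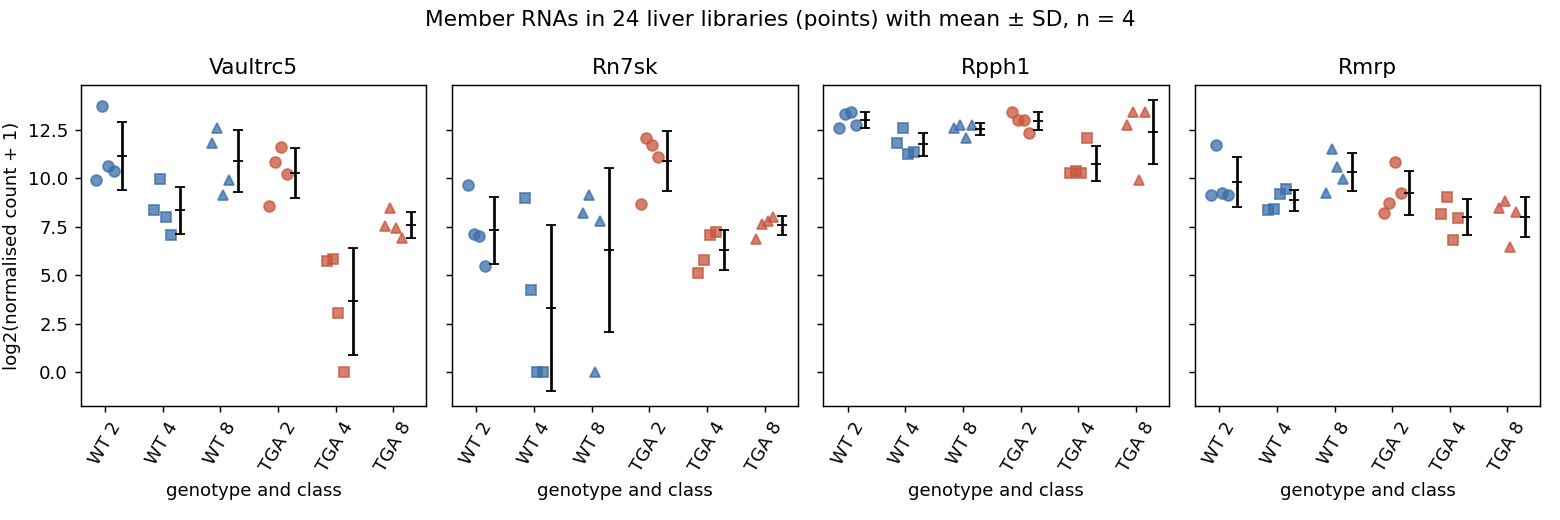
Level of each RNA, as log2(normalised count + 1), in every library (points) by genotype and class, with the mean and SD of the 4 libraries of a group beside them. Class 4 holds the lowest mean of Vaultrc5, Rn7sk and Rpph1 in each genotype, and Vaultrc5 is lowest in the TGA class 4 libraries (0 to 5.86).

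Vaultrc5, the RNA of the vault particle, had its lowest values in class 4 and, within that class, in the TGA libraries. Its log2 values in WT class 2 were 9.91, 13.71, 10.61 and 10.35 (numbers 1 to 4), in WT class 4 8.35, 9.98, 8.02 and 7.07, and in WT class 8 11.81, 12.56, 9.15 and 9.91. In TGA class 2 they were 8.54, 10.81, 11.58 and 10.19, in TGA class 4 5.71, 5.86, 3.05 and 0, and in TGA class 8 7.54, 8.47, 7.43 and 6.91. The 4 TGA class 4 libraries thus lay below every other library of the study, and TGA number 4 class 4 was the only library with Vaultrc5 listed at 0. In WT the class 4 libraries overlapped those of class 2 at a single point, since WT number 2 class 4 (9.98) stood just above WT number 1 class 2 (9.91). Ordered by mean, the groups ran from WT class 2 (11.15 ± 1.74, SD, n = 4 here and below) through WT class 8 (10.86 ± 1.59), TGA class 2 (10.28 ± 1.29), WT class 4 (8.35 ± 1.21) and TGA class 8 (7.59 ± 0.65) to TGA class 4 (3.65 ± 2.76). Neighbours in that order overlapped, except TGA class 8 and TGA class 4.

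The class 4 minus class 2 difference of Vaultrc5 was -2.79 in WT and -6.63 in TGA (SE 1.11 each, from the limma fit to all 24 libraries), and -4.71 (SE 0.78) over both genotypes. Its class 8 minus class 2 difference was -0.29 in WT, less than the spread between libraries, and -2.70 in TGA, where the groups did not overlap. The genotypes stood close together in class 2 (TGA minus WT -0.86) and apart without overlap in class 4 (-4.70) and class 8 (-3.27, SE 1.11 each). Averaged over the 3 libraries of each number, TGA (5.70 to 8.38) lay below WT (9.11 to 12.09), a difference of -2.94 (SE 0.73). Among all genes tested, 3.92% had number means lower in TGA without overlap. Whether the class difference itself differs between genotypes was not tested.

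Rn7sk, the scaffold of the P-TEFb inhibitory complex, was also lower in class 4 than in class 2, but its genotype difference had the opposite sign, with higher values in TGA. In WT class 2 it stood at 9.66, 7.10, 7.01 and 5.50, in WT class 4 at 8.96, 4.24, 0 and 0, and in WT class 8 at 8.21, 9.15, 0 and 7.79. In TGA class 2 it stood at 8.64, 12.08, 11.73 and 11.10, in TGA class 4 at 5.10, 5.78, 7.05 and 7.24, and in TGA class 8 at 6.84, 7.64, 7.80 and 7.99. All 3 libraries with Rn7sk listed at 0 were WT (numbers 3 and 4 of class 4, number 3 of class 8), and WT number 3 was at 0 in classes 4 and 8. A value of 0 in these data can be a failed measurement, so the WT means of class 4 (3.30 ± 4.27) and class 8 (6.29 ± 4.23) have wide errors, against 7.32 ± 1.73 in WT class 2. The TGA means were 10.89 ± 1.55, 6.29 ± 1.02 and 7.57 ± 0.50 for classes 2, 4 and 8. TGA class 2 came first in the order of means and did not overlap TGA class 8, the next, while all later neighbours overlapped.

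The class 4 minus class 2 difference of Rn7sk was -4.02 in WT and -4.60 in TGA (SE 1.59 each, from a spread shared by all groups), and -4.31 (SE 1.12) over both. For class 8 minus class 2 it was -1.03 in WT and -3.32 in TGA. TGA minus WT was 3.57 in class 2, 2.99 in class 4 and 1.28 in class 8 (SE 1.59 each), with overlap of the genotypes in every class. By number, WT means were 8.95, 6.83, 2.34 and 4.43 and TGA means 6.86, 8.50, 8.86 and 8.77. WT number 1 was the highest of all 8, so these means overlapped too (difference 2.61, SE 0.96). That SE rests largely on other genes and does not show the spread of Rn7sk, whose number means had an SD of 2.87 in WT and 0.94 in TGA. The genotype difference was 3.72 when WT number 1 was left out, whose class 2 and class 4 libraries had the most genes above 0 in the study. Leaving out WT number 3, with its pair of zeros, moved it by over 1.5 times, to 1.51, and the class 8 minus class 2 difference over both genotypes from -2.17 (SE 1.12) to -1.18.

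Rpph1, the catalytic RNA of RNase P, was above 0 in all 24 libraries and varied least. It ranked between 5 and 14 among all symbols of a library (ranks are not corrected for length), so its differences go with shifts of a few ranks. Its values were 12.56, 13.27, 13.42 and 12.73 in WT class 2, 11.81, 12.56, 11.26 and 11.35 in WT class 4, and 12.56, 12.73, 12.08 and 12.73 in WT class 8. In TGA they were 13.42, 12.98, 12.98 and 12.32 in class 2, 10.25, 10.35, 10.26 and 12.08 in class 4, and 12.73, 13.42, 9.92 and 13.42 in class 8. TGA class 4 lay entirely below TGA class 2, while WT class 4 met WT class 2 at a shared value of 12.56. In TGA class 8, number 3 stood far below the other 3 libraries. It is the TGA library with the most genes above 0 (9096). Means ran from 13.00 ± 0.42 in WT class 2, 12.92 ± 0.46 in TGA class 2, 12.53 ± 0.31 in WT class 8 and 12.38 ± 1.67 in TGA class 8 to 11.75 ± 0.60 in WT class 4 and 10.73 ± 0.90 in TGA class 4, and neighbours in this order overlapped throughout. The class 4 minus class 2 difference was -1.25 in WT and -2.19 in TGA (SE 0.54 each), and -1.72 (SE 0.38) over both. The genotypes differed by -0.41 (SE 0.33) over all classes, within the spread of the number means (11.05 to 12.61 in TGA, 12.26 to 12.86 in WT). Without TGA number 3 the genotype difference was -0.09, and the class 8 minus class 2 difference moved from -0.51 (SE 0.38) to -0.09.

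Rmrp, the RNA of RNase MRP, showed the smallest class 4 difference of the 4, and its genotype difference was largest in class 8. It was above 0 in every library, at 9.12, 11.73, 9.26 and 9.12 in WT class 2, 8.38, 8.41, 9.20 and 9.45 in WT class 4, and 9.25, 11.51, 10.58 and 9.93 in WT class 8. In TGA it was at 8.20, 8.73, 10.81 and 9.21 in class 2, 8.14, 9.03, 6.81 and 7.97 in class 4, and 8.47, 8.82, 6.47 and 8.24 in class 8. All 4 TGA class 8 libraries lay below all 4 of WT class 8 (8.0 ± 1.05 against 10.32 ± 0.96, difference -2.31, SE 0.89). In class 2 (9.24 ± 1.13 in TGA, 9.80 ± 1.28 in WT) and class 4 (7.99 ± 0.91 and 8.86 ± 0.55) the genotypes overlapped, with differences of -0.57 and -0.87. Over all classes TGA number means (8.03 to 8.86) ran just below those of WT (8.91 to 10.55), by -1.25 (SE 0.66), and the fitted class 4 minus class 2 difference was -1.10 (SE 0.63). That class difference was -0.64 without TGA number 3, -0.70 without WT number 2 and -0.65 as a difference of medians, each a move of over 1.5 times. The class 8 minus class 2 difference had opposite signs in WT (0.51) and TGA (-1.24, SE 0.89 each), and a test of that contrast between the genotypes was not made.

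**Figure D2:**
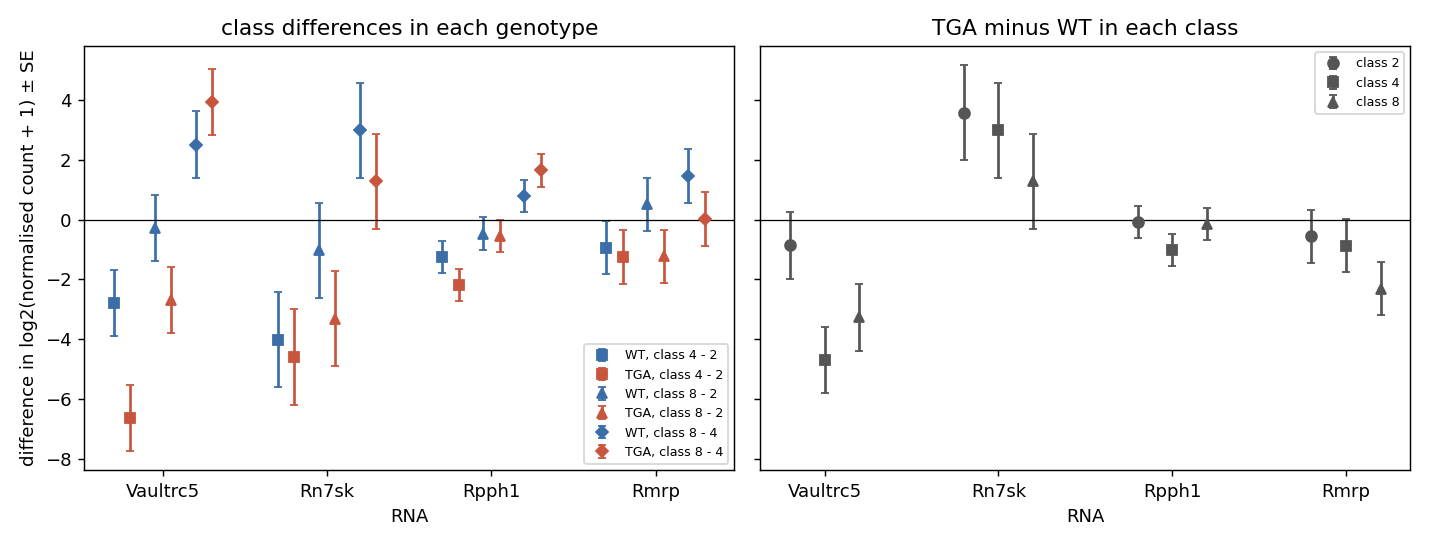
Fitted differences (points) with their SE (bars) on the log2(normalised count + 1) scale, for class comparisons within WT and TGA (left) and for TGA minus WT within each class (right). Class 4 minus class 2 is negative for every RNA in each genotype, whereas TGA minus WT is positive for Rn7sk and negative for the other RNAs in every class. The genotype difference is smaller than its SE for Vaultrc5 in class 2 and Rn7sk in class 8. The same holds for Rpph1 in class 2 (-0.07) and class 8 (-0.15, SE 0.54 each) and for Rmrp in classes 2 and 4.

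Set side by side, the class 4 minus class 2 differences of the 4 RNAs were all negative in each genotype, from -0.94 (Rmrp in WT) to -6.63 (Vaultrc5 in TGA). The class comparisons share their libraries, so the positive class 8 minus class 4 differences (3.22 for Vaultrc5, 2.13 for Rn7sk, 1.21 for Rpph1 and 0.73 for Rmrp) use the same class 4 values. Of these, that of Rn7sk was 1.33 without WT number 4 and 3.59 as a difference of medians, that of Rpph1 1.92 as a difference of medians, and that of Rmrp 0.46 without WT number 2. The median difference over all 4875 genes was -0.23 for class 4 minus class 2, which is smaller than that of each member. In TGA, 3 of the 4 members (Vaultrc5, Rn7sk and Rpph1) were lower in class 4 than in class 2 without overlap, as were 6.4% of all genes tested, while in WT it was 0 of 4, against 0.574%. For class 8 against class 2 in TGA it was 2 of 4 (Vaultrc5 and Rn7sk), against 2.56% of all genes, and for class 8 above class 4 in TGA 1 of 4 (Vaultrc5), against 1.17%. TGA lay below WT without overlap for 0 of 4 members in class 2 (2.15% of all genes), for Vaultrc5 in class 4 (0.882%) and for Vaultrc5 and Rmrp in class 8 (1.6%). Since Vaultrc5 was picked with these contrasts in view, the counts describe the members and test nothing.

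The 4 RNAs did not rank the libraries in the same way. Over the 24 libraries, Vaultrc5 went most closely with Rmrp (Pearson r = 0.68, Spearman rho = 0.71), and the correlation of their deviations from the group means was 0.45. Vaultrc5 and Rpph1 had r = 0.55, but -0.09 after the group means were removed, so their likeness lay between groups and not among libraries of a group. Vaultrc5 and Rn7sk had r = 0.25 over all libraries, 0.59 within the 12 WT and 0.70 within the 12 TGA libraries, where the class differences remain, and 0.24 for the deviations from group means. Rn7sk and Rmrp had r = -0.03, Rn7sk and Rpph1 0.36, and Rpph1 and Rmrp, the related RNAs of RNase P and RNase MRP, 0.48 (0.30 within groups). These are descriptions: the values of a library share its RNA, its normalisation and its detection limit.

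**Figure D3:**
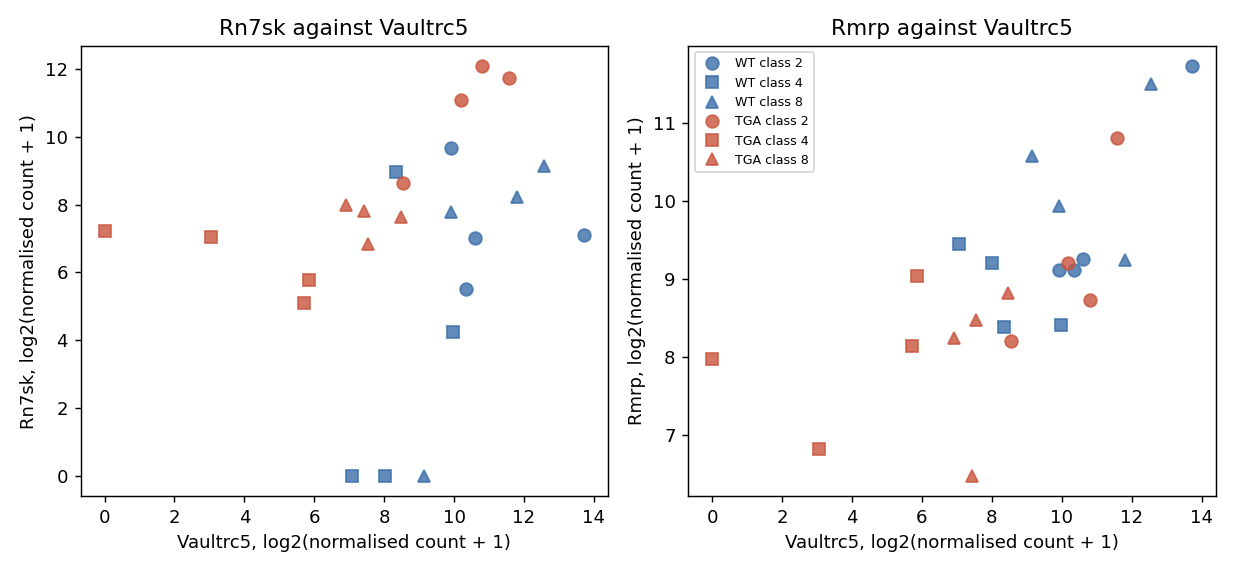
Rn7sk (left) and Rmrp (right) against Vaultrc5, each as log2(normalised count + 1), in 24 libraries coloured by genotype and shaped by class. On the left the highest Rn7sk values are those of 3 TGA class 2 libraries (11.10 to 12.08) and the 3 points at 0 are WT (r = 0.25), and on the right the libraries spread along a rising band (r = 0.68).

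The 5 genes whose values were most like those of each member were taken by Pearson r over the 24 libraries, among all genes tested. For Vaultrc5 they were Scd1, the stearoyl-CoA desaturase (r = 0.74), Hnrnpu, a nuclear RNA-binding protein (0.73), the small nucleolar RNA Snord15b (0.72), the RNA helicase gene Ddx23 (0.72) and the Cajal body RNA Scarna2 (0.70). For Rn7sk, Malat1, a nuclear long non-coding RNA, came first (r = 0.81, rho = 0.81), followed by Nlrp6 (0.79), Lrp1 (0.78), Jund (0.78) and Naa30 (0.77). For Rpph1 they were Safb2, a nuclear scaffold protein gene (0.80), Gadd45g (0.76), the small nucleolar RNA Snord17 (0.75), Uroc1 (0.71) and Osgin1 (0.68). For Rmrp they were Rprl2 (0.80), Atg2b (0.77), Hnrnpd, which codes for an RNA-binding protein (0.74), Nacc2 (0.69), which was above 0 in 6 libraries only, and Vaultrc5 (0.68). The median r with all genes tested was 0.04, 0.13, 0.06 and -0.00 for Vaultrc5, Rn7sk, Rpph1 and Rmrp. When the 4 libraries with more than 7000 detected genes were left out, the 20 values of r lay between 0.69 (Scarna2) and 0.84 (Snord17). The genes were picked for high r over these same libraries, so those values do not show stability. Rank correlation was lower than r for some, such as Nacc2 (rho = 0.47), Uroc1 (0.53), Gadd45g (0.61) and Scd1 (0.63), and higher for others, such as Snord15b (0.79) and Osgin1 (0.78).

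Rprl2, the gene with the highest r to Rmrp over the 24 libraries, is by sequence a relative of Rpph1. Its annotated transcript was identical to Rpph1 at 89.25% of 279 aligned positions and shared a run of at most 32 bases with it, against 7 bases with Rmrp. Rprl2 stood at 6.66, 8.09, 7.56 and 5.85 in WT class 2, 6.37, 6.82, 6.03 and 6.41 in WT class 4, and 7.52, 8.64, 7.31 and 6.98 in WT class 8. In TGA it stood at 4.93, 6.35, 5.76 and 6.09 in class 2, 5.50, 5.60, 2.78 and 4.34 in class 4, and 5.78, 5.45, 0.45 and 6.35 in class 8. Its number means were lower in TGA (3.0 to 5.80) than in WT (6.41 to 7.85) without overlap, and its lowest value was in TGA number 3 class 8, the library in which Rpph1 and Rmrp were also at their lowest (9.92 and 6.47). Its r was 0.80 with Rmrp and 0.60 with Rpph1, the rank correlations were 0.74 and 0.31, and the deviations from group means gave 0.64 and 0.67. Rprl1, looked at only because of this likeness, was identical to Rpph1 at 86.3% of 292 aligned positions and had r = 0.50 with Rmrp (0.67 for the deviations from group means), -0.04 with Rpph1 and -0.77 with the log2 number of genes above 0 in a library.

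**Figure D4:**
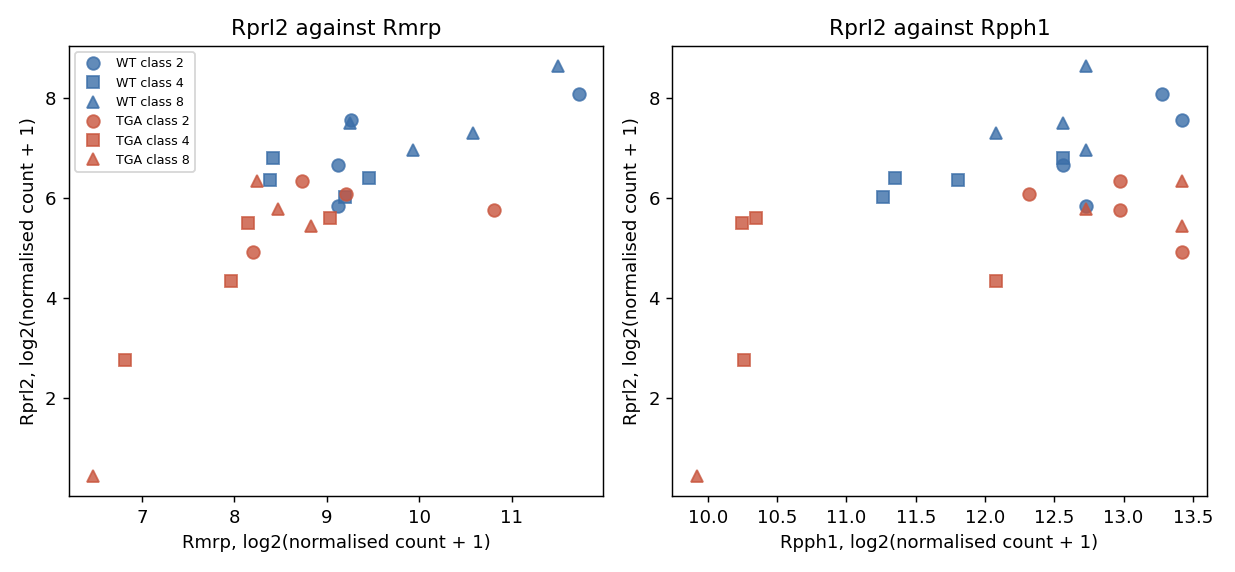
Rprl2 against Rmrp (left) and against Rpph1 (right), each as log2(normalised count + 1), in 24 libraries coloured by genotype and shaped by class. TGA number 3 class 8 is the lowest point of each panel (Rprl2 at 0.45), and r is 0.80 on the left and 0.60 on the right.

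Of 33 other RNA polymerase III transcripts in the table, 3 were tested, 2 of them copies of one RNA, and their class 4 minus class 2 differences were smaller than their SEs. The 7SL genes Rn7s1 and Rn7s2, near-identical copies that code for the RNA of the signal recognition particle, were above 0 in all 24 libraries and differed between classes 4 and 2 by -0.37 (SE 0.84) and -0.00 (SE 0.88), and the 5S ribosomal RNA copy n-R5s136 by -0.04 (SE 1.07). All 3 had lower means in TGA, by -2.37 (SE 0.88), -2.26 (SE 0.96) and -0.61 (SE 1.03), and 0 of the 3 passed in any of the 4 comparisons (limma, with 2 lower in TGA at an unadjusted p under 0.05 and 0 in each of the class comparisons). The share of all tested genes that passed as lower was 0.308% for class 4 minus class 2 and 0.246% for TGA minus WT, and the same 0.246% passed as higher in TGA. No gene passed as higher in class 4 (0.0%). Between classes 8 and 2, 0.0205% passed as lower and 0.0% as higher, and between classes 8 and 4 it was 0.0% in each direction. Whether the members differ from these RNAs was not tested.

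Small nuclear and nucleolar RNAs, most of which RNA polymerase II makes, were tested for 4 of 13 and 14 of 123 listed symbols, and 1 of them passed between classes 4 and 2. Of the 14 tested small nucleolar and Cajal body RNAs, 14 had lower values in class 4 than in class 2 (median difference -2.57, against -0.23 over all genes tested), with 1 past the threshold and 10 at an unadjusted p under 0.05 (limma). Some passed the filter mainly through class 2. Scarna13, Snora36b and Snora62 were at 0 in 8, 7 and 7 of the 8 class 4 libraries, so they could hardly come out higher there, and the 14 of 14 tests nothing. Snord15a, Snord22 and Snora23, above 0 in 23, 22 and 22 libraries, differed by -2.38, -2.44 and -1.38. Snord17, which guides modification of ribosomal RNA, fell by 5.40 (log2 scale, SE 1.28; limma, adjusted p = 0.039). Its value was 0 in 6 of the 8 libraries of class 4 and in 1 of the 8 of class 2. Its adjusted p ran from 0.00171 to 0.449 over 13 alternatives and stayed under 0.05 in 5 of them. The call was lost when WT number 2 (adjusted p = 0.184, limma), WT number 3 (0.202) or any 1 of the TGA numbers (0.0958 to 0.144) was left out, and also with the number of genes above 0 as a covariate (0.11) or with no filter on low values (0.449). Snord15b differed by -4.88 (SE 1.20) and Snord118, the U8 RNA of ribosomal RNA processing, by -4.68 (SE 1.21), neither past the threshold. Snord15b was at 0 in 5 and Snord118 in 6 of the 8 class 4 libraries, and neither was at 0 in class 2, so these differences are largely ones of detection. Of 4 further RNAs on the list of small nuclear RNAs, 4 had lower values in class 4 (median -1.61) and 0 passed (limma, 1 at an unadjusted p under 0.05). They were Rnu12, of the minor spliceosome (-2.14, SE 1.0), Rnu3a, the U3 RNA (-1.97, SE 1.01), Terc, the telomerase RNA (-1.26, SE 1.05), and Rnu11 (-0.49, SE 1.03). Rnu12, Rnu11 and Terc were at 0 in 7, 7 and 6 of the 8 class 4 libraries. They too could hardly come out higher there, so the 4 of 4 tests nothing. Rnu3a was above 0 in 23 libraries.

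**Figure D5:**
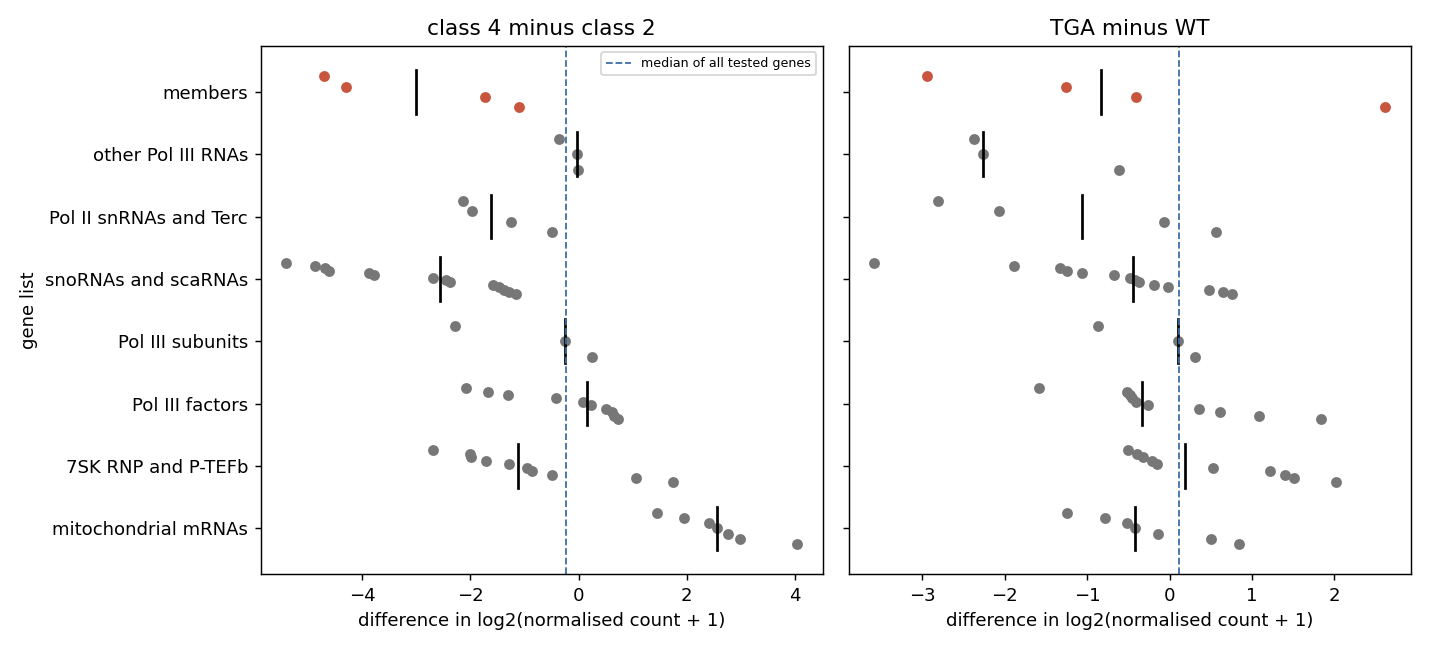
Differences of single genes (points) and the median of each list (black bars) on the log2(normalised count + 1) scale, for class 4 minus class 2 (left) and TGA minus WT (right), with the median of all genes tested as a dashed line. On the left the members, the small nucleolar RNAs and the small nuclear RNAs lie below the dashed line, the other RNA polymerase III transcripts lie near it, and the mitochondrial transcripts lie above it. Several of the small nucleolar and small nuclear RNAs were at 0 in most class 4 libraries, so their side of the line tests nothing.

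Few genes for proteins that make or bind the members passed the filter on low values. Of these, 0 passed the threshold between classes 4 and 2 (limma, counts at an unadjusted p under 0.05 beside each list). Of the RNA polymerase III subunits, 3 of 18 were tested. Polr3g, a subunit with a variant form, differed between classes 4 and 2 by -2.28 (SE 1.01, the only 1 of the 3 at an unadjusted p under 0.05). It was above 0 in 7 of 24 libraries and at 0 in 7 of the 8 of class 4, so this difference is largely one of detection. Polr3b, the second largest subunit, differed by 0.25 (SE 0.50) and Polr3gl by -0.25 (SE 0.79). They were above 0 in 9 and 6 libraries, and each was at 0 in 6 of the 8 of class 4. Of the initiation factors and regulators, 10 of 19 were tested, with 6 higher and 4 lower in class 4 (median 0.16, 0 at an unadjusted p under 0.05). The TFIIIC subunits Gtf3c1 and Gtf3c2 differed by -2.08 (SE 1.20) and -1.68 (SE 1.07), Brf1, of the TFIIIB complex, by -1.30 (SE 0.85), and Maf1, the repressor of RNA polymerase III, by 0.23 (SE 0.66). Gtf3c1, Gtf3c2, Brf1 and Maf1 were above 0 in 9, 11, 8 and 6 of 24 libraries. Each was at 0 in 6 of the 8 of class 4, so these differences too are largely ones of detection. The 7SK ribonucleoprotein and P-TEFb list had 10 of 16 tested, 2 higher and 8 lower in class 4 (median -1.12, 1 at an unadjusted p under 0.05). Aff1, of the super elongation complex, differed by -2.70 (SE 0.96), Mepce, the 7SK capping enzyme, by -2.0 (SE 1.11) and Syncrip by -1.99 (SE 1.03). Hexim1, the P-TEFb inhibitor, differed by -1.72 (SE 0.94) and Cdk9, the P-TEFb kinase, by -1.28 (SE 1.07). The 2 that were higher were Ell2 (1.75, SE 1.22, above 0 in 20 libraries) and Hnrnpa1 (1.06, SE 0.87, above 0 in 6). Hexim1 and Mepce were each above 0 in 9 of 24 libraries and Aff1 in 11, and each of these genes was at 0 in 7 of the 8 libraries of class 4. In TGA against WT this list split into 5 higher and 5 lower, with 0 at an unadjusted p under 0.05. The vault list had 2 of 6 tested: Mvp, the major vault protein, differed by -0.33 (SE 1.25) between classes 4 and 2 and by 0.80 (SE 0.97) between TGA and WT, and Srsf2 by -0.22 (SE 0.83) and 0.34 (SE 0.69). Mvp was above 0 in 10 of 24 libraries and Srsf2 in 8, and each was at 0 in 5 of the 8 of class 4. Mvp was also at 0 in 4 of the 8 of class 2 and in all of WT class 8, so these differences rest on few measured values. Of the list on processing and turnover, Dis3l2, an exonuclease, was tested (-0.32, SE 0.82, 1 of 13 in the table), and of 11 proteins of RNase P and RNase MRP 0 were.

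Other measures moved with the groups as well. The 7 tested mitochondrial-encoded transcripts of the respiratory chain all had higher values in class 4 than in class 2 (median 2.56, 0 past the threshold and 6 at an unadjusted p under 0.05 by limma), with ND4, COX1 and ND6 at 4.04 (SE 1.34), 2.98 (SE 1.25) and 2.76 (SE 1.13). The median number of genes above 0 was 5102, 3411 and 3175 in WT classes 2, 4 and 8 and 4328.5, 2650.5 and 2788.5 in the TGA classes. Its log2 had r = 0.17 with Vaultrc5, 0.42 with Rn7sk, -0.02 with Rpph1 and -0.19 with Rmrp. With that number as a covariate, the class 4 minus class 2 difference was -4.88 for Vaultrc5, -3.46 for Rn7sk, -1.90 for Rpph1 and -1.36 for Rmrp. The 8 tested hepatocyte markers all had lower values in class 4 (median -1.56) and in class 8 (median -1.93) than in class 2, with 0 past the threshold and 2 at an unadjusted p under 0.05 in each comparison (limma). Between genotypes, all 8 hepatocyte markers had higher means in TGA (median 2.96), and 5 of them rose past the threshold (limma): Alb, Apoa1, Cps1, Serpina1e and Trf. Over 12 alternatives the calls of Apoa1 and Alb held in 12 and that of Cps1 in 11. Cps1 and Serpina1e lost their calls with no filter on low values (adjusted p = 0.11 and 0.346, limma), Serpina1e also without WT or TGA number 4, and Trf without WT number 2, 3 or 4 or TGA number 4. The part that mitochondrial transcripts or hepatocyte content has in the members' differences was not tested.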

How the data were processed

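RNA-seq of total RNA from 24 mouse liver libraries was analysed, 4 in each of 6 groups read from the titles. Per the labels' protocols, the extraction kit was one meant for fixed tissue, libraries were NuGen and reads were single-end, 75 bp long. The submitters' processing notes name TopHat, edgeR and build mm9. The sources used here give neither the counting program nor the normalization. The deposited table holds values on a natural log scale. No label states the unit. The values look like ln(count + 1) after quantile normalisation. In the 2 libraries with most genes detected, 942 and 655 genes sat at 2 x ln(2)/24 (within 1e-09), which is 0.083 on the log2 scale. That is the level when a count of 1 in only 2 libraries is averaged by rank over all 24, so a value does not give back a read count. The highest value was identical in 20 libraries. The values were rescaled here to log2, which leaves a pseudocount of 1.

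A gene entered the tests if its deposited value reached 1 in 4 or more libraries (4875 genes), and these were fitted with limma 3.58.1 (R 4.3.3, trend) with 1 mean per group, and, for genotype, on the means of each genotype and number, 4 against 4. Prior and residual degrees of freedom were 27.8 and 18 (classes) and 152 and 6 (genotype), so SEs rest largely on the spread pooled over genes. P-values were adjusted by Benjamini-Hochberg over the 4875 genes and called under 0.05. The procedure was tested on simulated data. The members and gene lists were chosen with earlier results of these data known. Named genes were the members, list genes past the threshold or (up to 3 a list) with the largest class 4 minus class 2 differences, neighbouring genes, and the 5 genes with the highest r to each member. Hexim1, Cdk9, Ell2, Hnrnpa1, Maf1, Rnu11, Rprl1, Snord15a, Snord22, Snora23, Snora36b, Snora62 and Scarna13 were added after their values were seen. Neighbours came from the RefSeq gene table (GRCm38.p6). Alternatives were leaving out each number, leaving out 4 libraries with over 7000 genes above 0, a pseudocount of 0.1, a detection covariate, no filter, medians and a block.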

Additional observations from a re-analysis of the deposited data

Results flagged for a closer look

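Of 24 combinations of a member and a group of 4 libraries, 3 held a library far from the others by Dixon's ratio of gap to range (past its 95% critical value for 4 libraries), where chance marks about 1 in 20. Rn7sk was listed at 0 in WT number 3 class 8, with the other 3 libraries between 7.79 and 9.15 (ratio 0.851). Rpph1 was at 12.08 in TGA number 4 class 4, above the other 3 at 10.25 to 10.35 (ratio 0.946), and the same library had Vaultrc5 at 0. Rmrp was at 11.73 in WT number 2 class 2, above the other 3 at 9.12 to 9.26 (ratio 0.945), and that library also held the highest Vaultrc5 value of the study (13.71).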

How the results depend on the processing

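Each member's difference in the 3 class comparisons and the genotype comparison was recomputed under 12 or 13 alternatives, 204 values in all. Of these, 202 kept their sign and moved by less than 1 SD between libraries, and 2 changed sign: the class 8 minus class 2 difference of Rmrp (-0.36) was 0.16 without TGA number 3 and 0.23 as a difference of medians, and leaving out each number gave -0.61 to 0.16. The limit is wide. For the class comparisons the SD was 1.67 for Vaultrc5, 2.67 for Rn7sk, 0.86 for Rpph1 and 1.01 for Rmrp, more than several of the differences. A single left-out number could hardly move a difference that far, and the block cannot move the class differences at all, so the 202 do not measure stability. Over the alternatives the class 4 minus class 2 difference ranged from -5.34 to -4.12 for Vaultrc5, -5.15 to -3.46 for Rn7sk, -2.05 to -1.56 for Rpph1 and -1.36 to -0.64 for Rmrp. The counts of all genes past the threshold (limma) were less stable. For class 4 minus class 2 the 15 genes became 32 without the 4 libraries with over 7000 genes above 0, 25 with a pseudocount of 0.1, 3 with the detection covariate, 0 with no filter (237 higher and 676 lower unadjusted) and 1 (without WT number 3 or TGA number 2) to 20 (without WT number 1) when each number was left out. For class 8 minus class 2 the 1 gene became 0 with a pseudocount of 0.1, with the covariate and with no filter (54, 94 and 134 higher and 330, 208 and 472 lower unadjusted), and 0 to 1 without each number. For class 8 minus class 4 the 0 genes (180 higher and 141 lower unadjusted) became 5 without the 4 libraries and 0 to 2 without each number. For TGA minus WT the 24 genes became 84 without the 4 libraries, 42 with the covariate, 9 with no filter and 10 (without WT number 4) to 95 (without WT number 1) when each number was left out. With no filter more genes are tested; otherwise the cause was not tested.

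With genotype and number as a replicate block, 23 genes passed for class 4 minus class 2, 1 for class 8 minus class 2 and 0 for class 8 minus class 4. The members' class differences were the same as without it. Every number holds 1 library of each class, so that sameness is fixed by the design and tests nothing. The SEs were smaller for all 4 members: 0.68, 0.91, 0.36 and 0.60 for Vaultrc5, Rn7sk, Rpph1 and Rmrp, in place of 0.78, 1.12, 0.38 and 0.63. The correlation of deviations of same-numbered libraries was over 0.1 in 2 of 24 pairs (median 0.03, highest 0.43 for WT number 1 in classes 2 and 4). It was the highest with the own number in 9 of 24, among them every pair of TGA numbers 1 and 4. Since most pairs were not over 0.1, the main class fit did not pair the libraries by number. Low correlations over all genes tested do not exclude pairing. The genotype fit did average libraries by number, since those of the same genotype and number may share an animal. No block was fitted for TGA minus WT, since WT and TGA libraries of one number share only the number. The depth of these libraries is unknown, so listed zeros of Vaultrc5 and Rn7sk do not show that the RNA was absent.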
